A study of Mus musculus with 4 samples.

Results

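Expression of 10 genes of glucose uptake and glycolysis was followed in mouse embryonic fibroblasts (MEF) with and without *Hmga2* and with and without TGFB1. The genes encode a glucose transporter (*Slc2a1*), hexokinases (*Hk1*, *Hk2*), phosphofructokinases (*Pfkl*, *Pfkp*), the enzyme that makes their activator (*Pfkfb3*) and enzymes of the lower pathway (*Aldoa*, *Pgk1*, *Pkm*, *Ldha*). They were chosen by name from 25909 genes that could be named in a table of 63759 transcripts, and each gene was represented by its transcript with the longest gene body. All 10 were found, and all 10 had at least 1 RPKM in each of the 4 libraries. RPKM divides the reads of a transcript by its length and then by the size of the library, so that levels of different genes can be set side by side.

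The 4 conditions were *Hmga2*+/+ MEF given water (Ctrl), *Hmga2*+/+ MEF given TGFB1, *Hmga2*-/- MEF given water and *Hmga2*-/- MEF given TGFB1, with 1 library for each. All cells came from C57BL/6 embryos at embryonic day 15.5 and had been immortalized with SV40, and they grew in DMEM with 4.5 g/l glucose, 1 mM pyruvate and 10% fetal calf serum. Before treatment they were starved overnight in 1% serum, and the treated cells then received recombinant human TGFB1 at 10 ng/ml during 24 h. HMGA2 is a chromatin protein that binds AT-rich DNA, and the study asked how it takes part in the transcription that TGFB1 induces. With 1 library per condition no difference has a replicate check, so no p-value is given, and the 95% intervals printed here cover counting error only.

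The libraries held between 56140000 and 57300000 mapped reads, as recovered from the steps between low RPKM values. *Hmga2* had 14.8 RPKM in *Hmga2*+/+ Ctrl and 40.7 RPKM in *Hmga2*+/+ TGFB1 cells, and 0 reads in both *Hmga2*-/- libraries, which allows up to 0.0124 RPKM in each. *Ccn2*, a matricellular gene known to respond to TGFB1, stood at 13.2 RPKM before and 172.7 after TGFB1 in *Hmga2*+/+, and at 24.9 and 358.9 RPKM in *Hmga2*-/- MEF. All 10 fibroblast markers examined reached 1 RPKM in at least 1 library, *Lum* only in *Hmga2*+/+ Ctrl cells (1.08 RPKM). *Col1a1* had 272.4 to 362.9 RPKM and *Vim* 958 to 1497 RPKM. The 10 markers summed to 1951, 2288, 2377 and 2621 RPKM in the order *Hmga2*+/+ Ctrl, *Hmga2*+/+ TGFB1, *Hmga2*-/- Ctrl and *Hmga2*-/- TGFB1. With TGFB1 *Col3a1*, *Pdgfra*, *Dcn* and *Lum* fell and *Fbln2* and *Thy1* rose in both genotypes. Of 5 epithelial markers none reached 1 RPKM in any library, and of 4 muscle markers none did, with sums of 0.41 to 1.04 RPKM and at most 0.052 RPKM. Of 5 blood markers (sums of 1.39 to 1.995 RPKM) *Cd68* alone did, and *Ptprc* stayed at or below 0.007 RPKM. Of 4 endothelial markers, with sums of 3.89, 4.86, 7.12 and 8.14 RPKM, *Pecam1* and *Cdh5* stayed below 0.05 RPKM, whereas *Kdr* rose with TGFB1 from 1.11 to 4.46 and from 1.46 to 7.39 RPKM, and *Tek* fell from 2.75 to 0.33 and from 5.65 to 0.686 RPKM. The neuronal tubulin gene *Tubb3* rose from 0.913 to 2.81 and from 0.957 to 4.37 RPKM, with *Sox10* at or near 0, and the 3 nerve markers summed to 1.25, 2.99, 1.25 and 4.47 RPKM. Any part of other cells in the changes described here was not tested, and in bulk RNA a change in the number of cells cannot be told apart from a change of RNA per cell.

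Glucose enters fibroblasts mainly through facilitative transporters of the SLC2A (GLUT) family. Hexokinase traps it as glucose 6-phosphate, and phosphofructokinase 1 commits it to glycolysis under the control of fructose 2,6-bisphosphate, which PFKFB enzymes make and degrade. Aldolase splits the hexose, phosphoglycerate kinase and pyruvate kinase yield ATP, and lactate dehydrogenase turns pyruvate to lactate while it restores NAD+. Most steps are encoded by several isozyme genes with different tissue distribution, and activated or hypoxic fibroblasts are known to shift among them.

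Pyruvate kinase, aldolase and lactate dehydrogenase transcripts were the most abundant of the 10 in every library, and *Hk2* and *Pfkfb3* the least. In *Hmga2*+/+ Ctrl cells the levels ran from *Pkm* at 109.9 RPKM through *Aldoa* at 78.3, *Ldha* at 75.5, *Pgk1* at 22.4, *Hk1* at 12.1, *Slc2a1* at 9.90, *Pfkl* at 9.50 and *Pfkp* at 7.32 RPKM to *Hk2* at 1.91 and *Pfkfb3* at 1.56 RPKM. *Slc2a1* and *Pfkl*, neighbours in this order, differed by less than counting error (log2 ratio 0.06, interval −0.04 to 0.16). After TGFB1 the order in both genotypes was *Pkm*, *Ldha*, *Aldoa*, *Pgk1*, *Slc2a1*, *Pfkl*, *Hk1*, *Pfkp*, *Hk2* and *Pfkfb3*, and all neighbours differed by more than counting error. *Hk1* thus stood above *Slc2a1* and *Pfkl* in the Ctrl libraries and below them in the TGFB1 libraries. In *Hmga2*-/- Ctrl cells *Ldha* and *Aldoa*, *Slc2a1* and *Pfkp*, and *Hk2* and *Pfkfb3* were neighbours within counting error. The plot of RPKM by gene shows the levels of all 4 libraries.

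**Figure D1:**
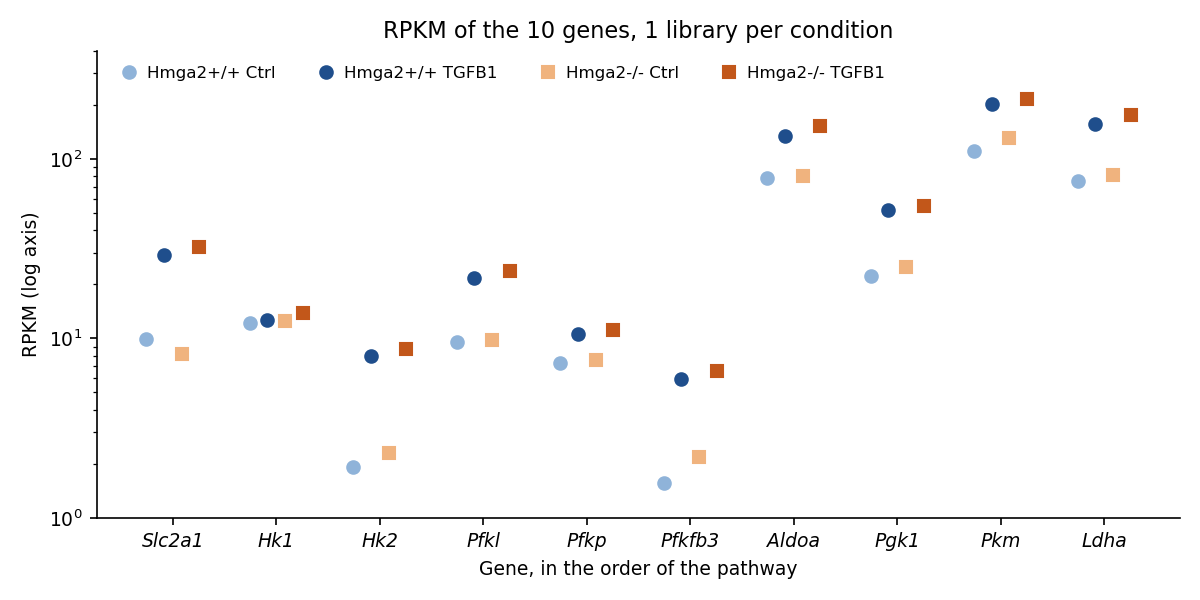
RPKM (log axis) of the 10 genes in the order of the pathway, 1 point per library; circles are *Hmga2*+/+ and squares *Hmga2*-/- MEF, light is Ctrl and dark is TGFB1. The dark points stand above the light points of the same genotype for every gene, by the least for *Hk1*.

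TGFB1 raised the transcripts of 8 of the 10 genes at least 1.5-fold in *Hmga2*+/+ MEF and of the same 8 in *Hmga2*-/- MEF, and 0 fell in either. The largest rises were those of *Hk2*, *Pfkfb3* and *Slc2a1*, while *Hk1* and *Pfkp* stayed under 1.5-fold. Over the 11372 genes that reached 1 RPKM in any library, here called tested, 12.1% rose and 17.7% fell by this measure in *Hmga2*+/+ MEF, and 13.8% rose and 15.9% fell in *Hmga2*-/- MEF. With libraries rescaled by the median ratio, 1699 genes rose and 1671 fell in *Hmga2*+/+ MEF, in place of 1372 and 2012, and 1773 rose and 1600 fell in *Hmga2*-/- MEF, in place of 1570 and 1812. The median log2 change of the 10 genes was 1.13 in *Hmga2*+/+ and 1.11 in *Hmga2*-/- MEF, beside −0.05 and 0.01 over all genes tested. Their summed level was 328 RPKM before and 632 RPKM after TGFB1 in *Hmga2*+/+ MEF, and 360.3 and 691 RPKM in *Hmga2*-/- MEF.

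*Slc2a1*, which encodes GLUT1, the transporter of basal glucose uptake, lies on chromosome 4 (plus strand, 119108745 to 119137329) (mm10). It had 9.90 RPKM in *Hmga2*+/+ Ctrl, 29.2 in *Hmga2*+/+ TGFB1, 8.15 in *Hmga2*-/- Ctrl and 32.1 in *Hmga2*-/- TGFB1 cells. Both TGFB1 libraries were well above both Ctrl libraries, and the *Hmga2*-/- cells held the lowest and the highest value. The rise was 2.95-fold (2.78 to 3.14) in *Hmga2*+/+ and 3.94-fold (3.69 to 4.20) in *Hmga2*-/- MEF.

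*Hk2*, on chromosome 6 (minus strand, 82725027 to 82774454), encodes the inducible hexokinase that binds the outer mitochondrial membrane. Its levels were 1.91 RPKM in *Hmga2*+/+ Ctrl, 7.96 in *Hmga2*+/+ TGFB1, 2.31 in *Hmga2*-/- Ctrl and 8.77 in *Hmga2*-/- TGFB1 cells. It rose 4.17-fold (3.81 to 4.57) in *Hmga2*+/+ and 3.80-fold (3.50 to 4.13) in *Hmga2*-/- MEF, the largest rise of the 10 genes in the *Hmga2*+/+ cells and the second largest, after *Slc2a1*, in the *Hmga2*-/- cells. *Hk1*, on chromosome 10 (minus strand, 62268855 to 62379908), encodes the hexokinase found in most tissues. It had 12.1, 12.7, 12.4 and 13.8 RPKM in the same order of libraries, a change of 1.05-fold (0.996 to 1.11) in *Hmga2*+/+ and 1.11-fold (1.05 to 1.17) in *Hmga2*-/- MEF. *Hk1* was the gene of the 10 that moved least. The transcript that represents *Hk1* begins at an upstream start, and the short transcript confined to that end of the gene, from 62374965 to 62379908, had 0.038, 0.037, 0 and 0 RPKM. The most abundant *Hk1* transcript, from 62268855 to 62340421, had 13.2, 13.6, 13.3 and 14.5 RPKM.

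At the committing step, *Pfkl*, on chromosome 10 (minus strand, 77986949 to 78009796), encodes the liver-type subunit of phosphofructokinase 1. It had 9.50 RPKM in *Hmga2*+/+ Ctrl, 21.8 in *Hmga2*+/+ TGFB1, 9.83 in *Hmga2*-/- Ctrl and 23.6 in *Hmga2*-/- TGFB1 cells, a rise of 2.30-fold (2.18 to 2.42) and 2.40-fold (2.28 to 2.53). *Pfkp*, on chromosome 13 (minus strand, 6579874 to 6648771), encodes the platelet-type subunit and had 7.32, 10.6, 7.59 and 11.1 RPKM. Its ratios of 1.44 (1.35 to 1.54) and 1.47 (1.38 to 1.56) lay just outside the 1.5-fold limit, and with libraries rescaled by the median ratio over genes *Pfkp* passed it in both genotypes. Just inside the limit was *Pkm* in *Hmga2*-/- MEF, at 1.65-fold.

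*Pfkfb3*, on chromosome 2 (minus strand, 11471431 to 11553929), encodes the PFKFB isozyme with the highest ratio of kinase to phosphatase activity. It had 1.56 RPKM in *Hmga2*+/+ Ctrl, 5.91 in *Hmga2*+/+ TGFB1, 2.20 in *Hmga2*-/- Ctrl and 6.54 in *Hmga2*-/- TGFB1 cells. The TGFB1 libraries were close to each other, and the *Hmga2*-/- Ctrl library was higher than the *Hmga2*+/+ Ctrl library. *Pfkfb3* rose 3.80-fold (3.40 to 4.25) in *Hmga2*+/+ and 2.98-fold (2.71 to 3.28) in *Hmga2*-/- MEF.

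In lower glycolysis, *Aldoa*, the aldolase of muscle and most other tissues, lies on chromosome 7 (minus strand, 126795234 to 126800447) and had 78.3, 134, 80.7 and 152 RPKM in *Hmga2*+/+ Ctrl, *Hmga2*+/+ TGFB1, *Hmga2*-/- Ctrl and *Hmga2*-/- TGFB1 cells. It rose 1.71-fold (1.66 to 1.76) and 1.88-fold (1.82 to 1.93). *Pgk1*, phosphoglycerate kinase on chromosome X (plus strand, 106187100 to 106203699), had 22.4, 52.1, 25.0 and 54.4 RPKM and rose 2.33-fold (2.22 to 2.45) and 2.17-fold (2.07 to 2.28). Both TGFB1 libraries were above both Ctrl libraries for each of these genes.

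*Pkm*, on chromosome 9 (plus strand, 59656368 to 59679375), encodes the pyruvate kinases M1 and M2, which are made by choice between a pair of alternative exons. It had 109.9, 202, 130.2 and 214 RPKM and rose 1.84-fold (1.80 to 1.87) in *Hmga2*+/+ and 1.65-fold (1.62 to 1.68) in *Hmga2*-/- MEF. The table holds a pair of *Pkm* transcripts with identical ends and a length of 2411 bases each. Their reads differed by 289, 23, 250 and 301 of 14872 to 29731 reads, always with the same one lower, and the table does not say which exon each carries. *Ldha*, on chromosome 7 (plus strand, 46845804 to 46855627), encodes the lactate dehydrogenase subunit that favours lactate formation. It had 75.5, 157, 81.8 and 175 RPKM and rose 2.07-fold (2.01 to 2.13) and 2.14-fold (2.08 to 2.20).

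**Figure D2:**
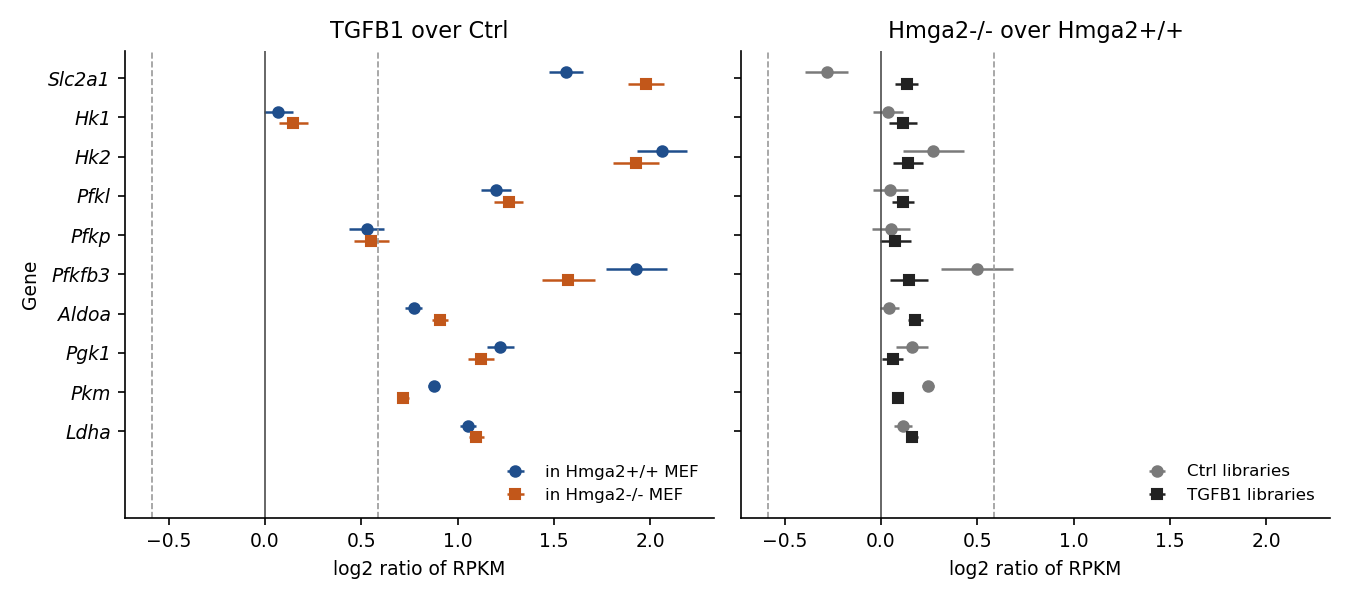
Log2 ratio of RPKM of the 10 genes, TGFB1 over Ctrl (left) and *Hmga2*-/- over *Hmga2*+/+ (right), 1 library against 1; bars are 95% intervals from counting error only, and dashed lines mark 1.5-fold. On the left all points lie above 0, and all but *Hk1* and *Pfkp* lie past 1.5-fold; on the right no point does.

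**Figure D3:**
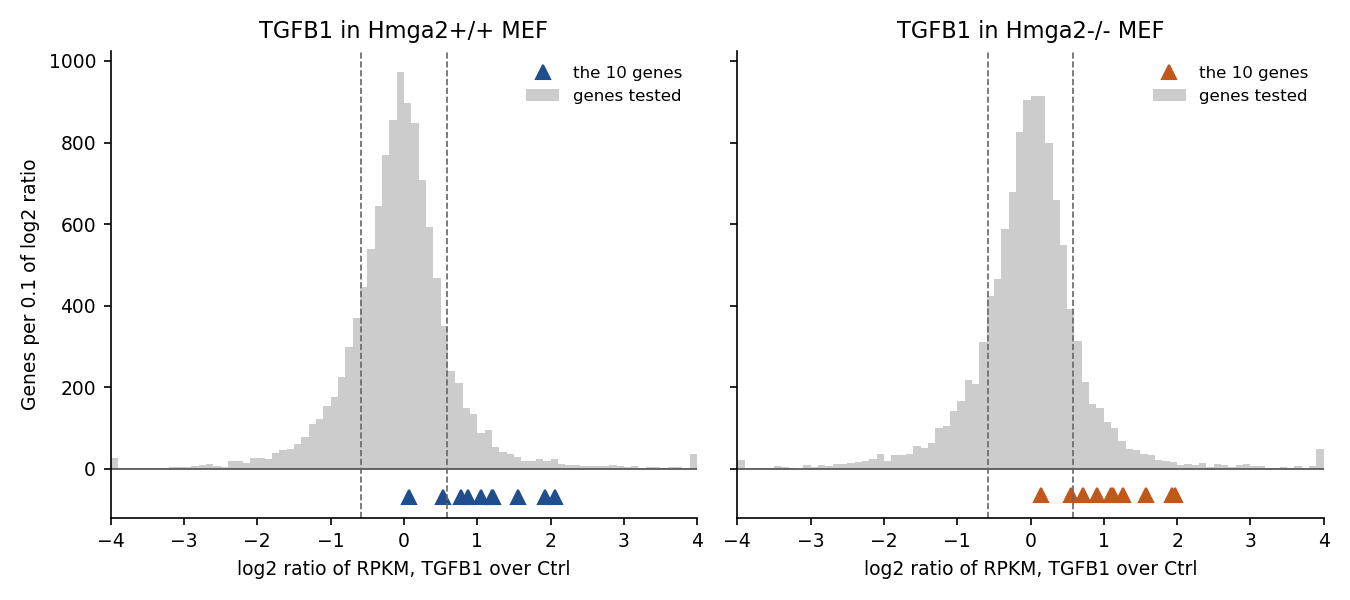
Number of genes per 0.1 of log2 ratio of RPKM, TGFB1 over Ctrl, for the 11372 genes tested (bars, values past 4 drawn at 4) with the 10 genes as triangles, in *Hmga2*+/+ (left) and *Hmga2*-/- MEF (right); dashed lines mark 1.5-fold. The triangles lie at 0.07 to 2.06 and 0.15 to 1.98, on the upper side of the distribution.

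The 10 genes have 41 transcripts in the table, of which *Slc2a1*, *Hk2* and *Pgk1* have 1 each. All 10 transcripts of *Pfkfb3* rose, with log2 changes of 1.91 to 1.99 in *Hmga2*+/+ and 1.55 to 1.60 in *Hmga2*-/- MEF, and so did all transcripts of *Pfkl* (2), *Aldoa* (3), *Pkm* (4) and *Ldha* (3). Of 11 *Hk1* transcripts 0 rose, and of 5 *Pfkp* transcripts 1 rose in *Hmga2*+/+ and 2 in *Hmga2*-/- MEF. Transcripts of a gene share exons and therefore reads.

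Some of these genes share long stretches with other annotated genes, which could split their reads. In the GENCODE vM21 transcripts, stretches of at least 75 bases with at least 95% identity were found in 4 processed pseudogenes for *Pgk1* (longest 1255 bases), in 5 for *Ldha* (longest 1000 bases) and in 1 for *Pkm* (1593 bases), which also shared 201 bases with 1 gene of unsettled type. None was found for *Hk2*, *Pfkl* or *Aldoa*. *Pfkp* shared 748 bases with the neighbouring gene *Pitrm1*, *Pfkfb3* shared up to 87 bases with 20 genes, and *Slc2a1* and *Hk1* shared 108 and 157 bases with antisense genes. The levels of *Pgk1*, *Ldha* and *Pkm* are uncertain to that extent. For *Pfkp* this was not tested, because the search took both strands without recording which one matched, and the libraries were strand-specific.

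Promoters of some of the genes are shown. *Slc2a1*, *Hk2*, *Pfkfb3*, *Pgk1* and *Ldha* are among the textbook targets of the hypoxia-inducible factors (HIF) and rose together. *Hk1*, which stayed under 1.5-fold, is set beside them. *Pfkl*, *Aldoa* and *Pkm* also rose, but their promoters are described below and not printed. The printed set thus does not stand for all genes that rose. Each printed promoter is the stretch from 250 bases before to 50 bases after a start of transcription in RefSeq (GRCm38.p6, the mm10 assembly). It reads 5′ to 3′ on the strand of the gene. Capitals mark the core of the HIF response element, ACGTG, on either strand, where it reads CACGT on the printed strand when it lies on the other.
*Slc2a1*, chr4:119108495-119108794, plus strand: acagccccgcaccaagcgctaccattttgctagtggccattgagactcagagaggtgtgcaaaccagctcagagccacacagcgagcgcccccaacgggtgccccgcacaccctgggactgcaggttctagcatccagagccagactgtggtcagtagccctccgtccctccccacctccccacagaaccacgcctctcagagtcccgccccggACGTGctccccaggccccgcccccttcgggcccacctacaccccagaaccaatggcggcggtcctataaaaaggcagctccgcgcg
*Hk2*, chr6:82774405-82774704, minus strand: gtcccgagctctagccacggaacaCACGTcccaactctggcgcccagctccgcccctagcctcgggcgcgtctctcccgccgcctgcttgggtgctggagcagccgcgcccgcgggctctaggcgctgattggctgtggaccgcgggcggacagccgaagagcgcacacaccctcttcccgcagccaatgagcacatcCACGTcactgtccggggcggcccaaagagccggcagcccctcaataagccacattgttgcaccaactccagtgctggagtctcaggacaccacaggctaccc
*Pfkfb3*, chr2:11502041-11502340, minus strand: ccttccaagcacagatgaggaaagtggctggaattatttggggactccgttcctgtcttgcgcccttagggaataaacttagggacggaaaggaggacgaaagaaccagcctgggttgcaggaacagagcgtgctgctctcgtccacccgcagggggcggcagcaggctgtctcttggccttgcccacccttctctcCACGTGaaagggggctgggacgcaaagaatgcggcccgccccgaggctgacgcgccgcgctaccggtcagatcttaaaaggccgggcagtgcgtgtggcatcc
*Pgk1*, chrX:106186850-106187149, plus strand: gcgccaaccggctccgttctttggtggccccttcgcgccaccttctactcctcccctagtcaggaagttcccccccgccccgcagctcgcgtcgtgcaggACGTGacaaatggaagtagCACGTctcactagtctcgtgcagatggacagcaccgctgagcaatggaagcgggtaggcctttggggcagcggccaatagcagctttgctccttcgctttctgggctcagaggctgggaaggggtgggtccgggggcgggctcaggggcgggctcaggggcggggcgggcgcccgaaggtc
*Ldha*, chr7:46845554-46845853, plus strand: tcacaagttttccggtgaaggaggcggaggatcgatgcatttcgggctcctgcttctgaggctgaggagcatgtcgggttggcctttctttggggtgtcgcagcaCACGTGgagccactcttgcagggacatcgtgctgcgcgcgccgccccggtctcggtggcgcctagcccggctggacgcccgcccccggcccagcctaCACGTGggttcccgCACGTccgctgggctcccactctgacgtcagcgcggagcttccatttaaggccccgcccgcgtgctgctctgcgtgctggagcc
*Hk1*, chr10:62340372-62340671, minus strand: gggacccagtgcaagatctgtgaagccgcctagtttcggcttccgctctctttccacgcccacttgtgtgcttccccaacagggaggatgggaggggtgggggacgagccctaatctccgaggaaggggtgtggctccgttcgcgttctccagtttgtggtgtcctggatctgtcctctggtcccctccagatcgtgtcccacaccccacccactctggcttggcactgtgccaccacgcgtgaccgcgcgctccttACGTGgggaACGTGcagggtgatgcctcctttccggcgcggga

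The core began 36 bases before the start in *Slc2a1*, 226 and 52 bases before it in *Hk2*, and 150 and 131 bases before it in *Pgk1*. In *Ldha* it occurred 5 times, of which 4 are the overlapping matches of both strands within a pair of CACGTG palindromes, and the downstream start of *Ldha* had 0. *Pfkfb3* held 1 CACGTG, which is also counted as 2 cores, and 1 core at its upstream start. *Hk1* held 2 cores as well, 7 and 16 bases after the start printed above, and 0 at its upstream start, where the transcript that stands for *Hk1* begins. RefSeq gave 16 starts for the 10 genes, and 10 of them, in 8 of the genes, held the core, beside 19.6% of all 32851 promoters of the same length. A pair of these starts, both of *Aldoa*, have overlapping windows that hold the same site, which is thus counted 2 times. *Pfkl*, which rose, and *Pfkp* held none. In *Aldoa* the core was absent at 126800447, where the transcript that stands for the gene begins. It was present at 126799254, where the most abundant *Aldoa* transcript begins. In *Pkm* the core was present only at the start at 59657227 and absent at 59656576, whereas the *Pkm* transcripts counted here begin at 59656368. Promoters of the 10 genes had a median GC content of 64.8% against 52.7% over all promoters, and the core contains a CG. The GC box GGGCGG of SP1 was present at 11 of the 16 starts and in 35.7% of all promoters, CACGTG at 2 of 16 and in 7.15%, and the SMAD palindrome GTCTAGAC at 0 of 16 and in 0.213%. A match describes the letters only.

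Between genotypes 0 of the 10 genes passed 1.5-fold in either direction, in Ctrl or in TGFB1 cells. In Ctrl cells the median log2 ratio of *Hmga2*-/- over *Hmga2*+/+ MEF was 0.08. *Slc2a1* was lower in *Hmga2*-/- MEF, 8.15 against 9.90 RPKM (log2 ratio −0.28, interval −0.39 to −0.17). The Ctrl ratios of *Hk1*, *Pfkl*, *Pfkp* and *Aldoa* lay within counting error. Over all genes tested, 3.02% were at least 1.5-fold higher and 2.76% at least 1.5-fold lower in *Hmga2*-/- Ctrl cells. The largest ratio of the 10 was that of *Pfkfb3*, 2.20 against 1.56 RPKM or 1.41-fold (1.24 to 1.61), followed by *Hk2* at 1.21-fold (1.08 to 1.35) and *Pkm* at 1.19-fold (1.16 to 1.21). In TGFB1 cells the log2 ratios ran from 0.06 (*Pgk1*) to 0.18 (*Aldoa*) with a median of 0.12, and that of *Pfkp* lay within counting error. Over all genes tested, 3.9% were at least 1.5-fold higher and 2.79% at least 1.5-fold lower in *Hmga2*-/- TGFB1 cells. The median over all genes tested was −0.02 in Ctrl and 0.04 in TGFB1 cells. The Ctrl and TGFB1 libraries of a genotype enter both kinds of comparison, so these ratios are not independent of the responses to TGFB1.

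The response to TGFB1 differed between genotypes by more than counting error for 5 of the 10 genes, beside 39.8% of the 11312 genes tested that had reads in every library (24.8% with a larger and 15.0% with a smaller response in *Hmga2*-/- MEF), so that the count is no result about the 10 genes as a group. It was larger in *Hmga2*-/- MEF for *Slc2a1*, by 0.42 on the log2 scale (0.29 to 0.54), and for *Aldoa*, by 0.14 (0.07 to 0.20). It was smaller in *Hmga2*-/- MEF for *Pfkfb3*, with a difference of −0.35 (−0.56 to −0.14) that was −0.20 with a pseudocount of 1 RPKM, for *Pkm*, with −0.16 (−0.20 to −0.12), and for *Pgk1*, with −0.10 (−0.20 to −0.003). The intervals for *Hk1*, *Hk2*, *Pfkl*, *Pfkp* and *Ldha* included 0, and the widest of them, that of *Hk2*, ran from −0.31 to 0.04. For *Pfkfb3*, *Pkm* and *Pgk1* the smaller response went with a higher Ctrl level in *Hmga2*-/- MEF, and for *Slc2a1* the larger response went with a lower one. For *Aldoa* the larger response went with a slightly higher Ctrl level. The Ctrl level is part of the response, so such a link arises in part by arithmetic and is no separate result. With 1 library each, the genotype and the single culture behind each value cannot be told apart.

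Isozyme composition changed where a step has more than 1 expressed gene. *Hk2* made up 13.6% of the summed hexokinase RPKM in *Hmga2*+/+ Ctrl and 38.4% in *Hmga2*+/+ TGFB1 cells, and 15.6% and 38.8% in *Hmga2*-/- cells. *Hk1* supplied 86.2%, 61.4%, 84.2% and 61.0%, and *Hk3* and *Hkdc1* stayed at or below 0.026 RPKM. The hexokinase sum rose 1.47-fold and 1.53-fold, from 14.1 to 20.7 and from 14.8 to 22.6 RPKM.

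Among phosphofructokinase 1 subunits, *Pfkl* went from 38.9% to 61.3% in *Hmga2*+/+ and from 42.0% to 62.5% in *Hmga2*-/- MEF. *Pfkm*, the muscle-type subunit, fell from 7.59 to 3.22 RPKM (log2 change −1.24) and from 6.01 to 3.06 RPKM (−0.97), and its share from 31.1% to 9.04% and from 25.7% to 8.10%. *Pfkp* kept a share of 29.4% to 32.4%. The 3 subunits together rose 1.46-fold and 1.61-fold.

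*Pfkfb3* supplied 25.3% of PFKFB RPKM in *Hmga2*+/+ Ctrl cells and 63.1% after TGFB1, and 35.8% and 66.0% in *Hmga2*-/- cells. *Pfkfb1* fell in *Hmga2*+/+ MEF, where it had 1.21 and 0.785 RPKM, and stayed under 1.5-fold in *Hmga2*-/- MEF, with 1.02 and 1.14 RPKM. *Pfkfb2* and *Pfkfb4*, at 0.842 to 2.21 RPKM, stayed under 1.5-fold. The share depended on the transcript chosen, and with the most abundant transcript of each gene *Pfkfb3* supplied 37.5%, 75.2%, 50.8% and 78.5%.

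*Slc2a1* carried 88.4% to 97.0% of the RPKM of the 4 classical glucose transporters. *Slc2a3*, encoding the high-affinity GLUT3, rose from 0.550 to 1.25 and from 0.420 to 0.903 RPKM, *Slc2a4*, encoding the insulin-responsive GLUT4, had at most 0.744 RPKM, and *Slc2a2* had 0. *Aldoa* supplied at least 98.6% of aldolase and *Ldha* at least 93.8% of lactate dehydrogenase RPKM. Their minor isozymes went the other way: *Aldoc*, the brain aldolase, fell from 1.08 to 0.485 and from 0.657 to 0.403 RPKM, and *Ldhb*, the subunit of heart, fell from 4.99 to 2.18 and from 4.92 to 2.73 RPKM. *Aldoc* reached 1 RPKM only in *Hmga2*+/+ Ctrl cells, a library it fell from. *Slc2a3* reached it only in *Hmga2*+/+ TGFB1 cells, a library it rose to. *Pgk2* and *Pklr* had 0 reads and *Ldhc* at most 0.014 RPKM.

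**Figure D4:**
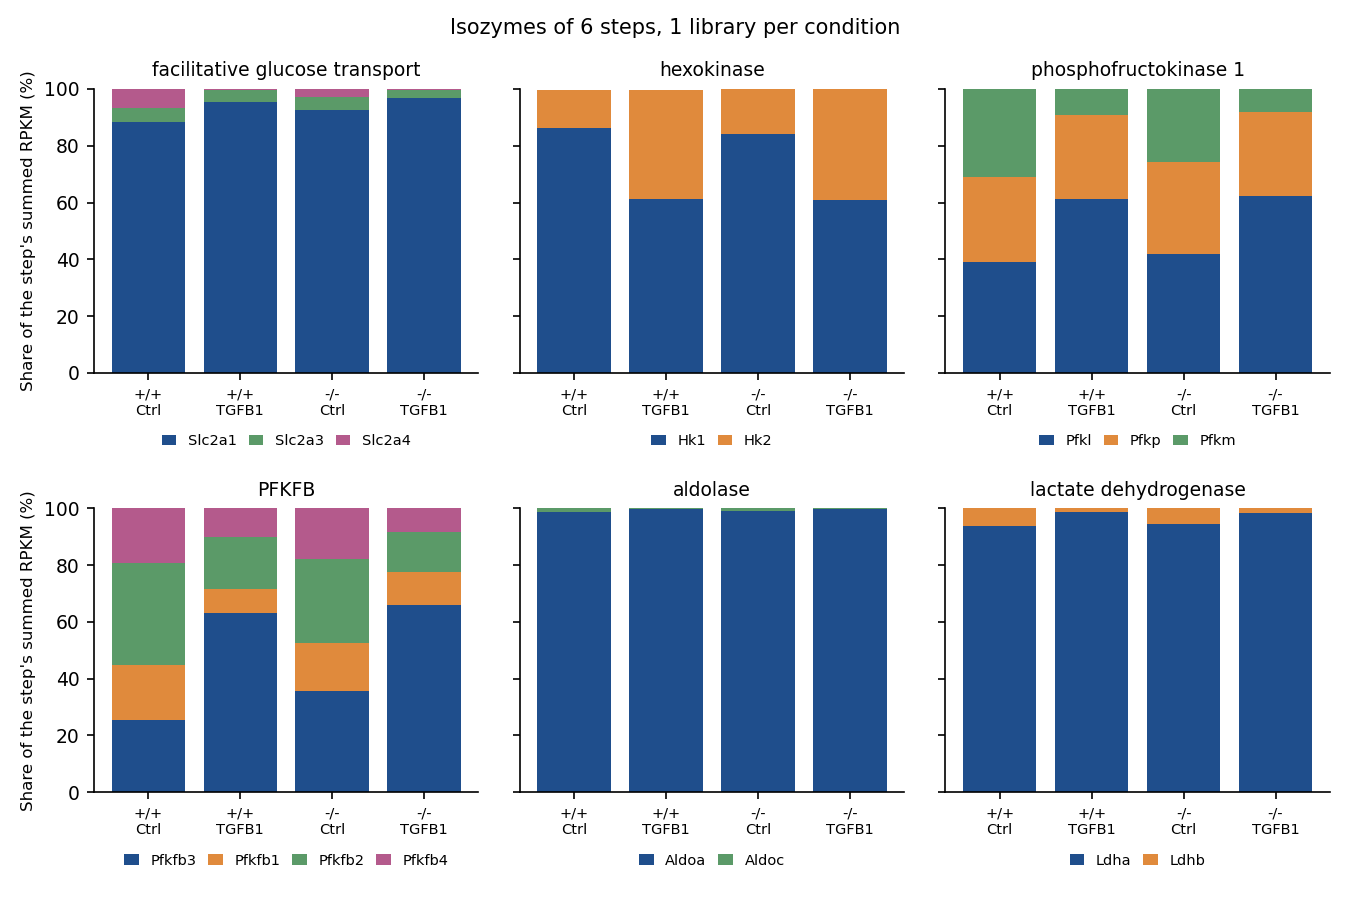
Share of each gene in the summed RPKM of its step (%), for 6 steps, 1 bar per library; genes under 0.2% in all libraries are not drawn. The shares of *Hk2*, *Pfkl* and *Pfkfb3* are larger in both TGFB1 bars than in both Ctrl bars, and that of *Pfkm* is smaller.

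The steps between the 10 genes behaved as follows. Of 8 genes, 6 could be tested and 3 rose in each genotype, beside 12.1% of all genes tested in *Hmga2*+/+ and 13.8% in *Hmga2*-/- MEF. *Gpi1*, glucose 6-phosphate isomerase, went from 28.6 to 43.9 and from 29.0 to 47.3 RPKM, *Pgam1*, phosphoglycerate mutase, from 24.3 to 50.7 and from 29.4 to 55.2, and *Eno1*, the common enolase, from 70.4 to 158 and from 84.7 to 179.8 RPKM. *Eno2*, the neuronal enolase, fell from 9.06 to 4.85 and from 6.66 to 3.68 RPKM, *Eno3* had log2 changes of −0.45 and −0.38, and *Tpi1* had 0.53 and 0.52. The longest *Gapdh* transcript had 0.395 to 0.863 RPKM and was not tested. Its most abundant transcript had 19.3 and 33.5 RPKM in *Hmga2*+/+ and 23.1 and 34.8 RPKM in *Hmga2*-/- MEF, and stretches nearly identical to *Gapdh* lay in 82 other genes, of which 78 were pseudogenes.

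Of the 104 other genes in 10 lists around the pathway, 79 could be tested. In *Hmga2*+/+ MEF 13 rose and 16 fell, with a median of 0.00, beside 12.1% that rose and 17.7% that fell over all genes tested. In *Hmga2*-/- MEF 19 rose and 16 fell, with a median of 0.13, beside 13.8% and 15.9%. The same shares apply to the counts of each list below. Among 16 genes of lactate and pyruvate transport and fate, 2 rose and 4 fell in *Hmga2*+/+, and 3 rose and 5 fell in *Hmga2*-/- MEF. *Slc16a3*, encoding the lactate exporter MCT4, went from 1.11 to 6.08 and from 1.03 to 8.13 RPKM, and *Slc16a1*, encoding MCT1, from 11.6 to 21.4 and from 11.4 to 21.0 RPKM. The response of *Slc16a3* was larger in *Hmga2*-/- MEF by 0.53 on the log2 scale (0.18 to 0.88). *Pdk1*, a kinase that inhibits pyruvate dehydrogenase, rose in *Hmga2*-/- MEF (log2 change 0.81) and stayed under 1.5-fold in *Hmga2*+/+ MEF (0.54), whereas *Pdk2* fell in both (−1.60 and −1.48) and *Pdk4* fell in *Hmga2*+/+ MEF (−0.87, against −0.37). *Mpc1*, a subunit of the mitochondrial pyruvate carrier, fell (−0.86 and −1.14), as did *Pdp1*, a phosphatase that activates pyruvate dehydrogenase (−0.61 and −0.85). *Slc16a7*, encoding MCT2, and *Pcx*, pyruvate carboxylase, fell in *Hmga2*-/- MEF (−0.71 and −0.73) and had −0.30 and −0.43 in *Hmga2*+/+ MEF. *Slc16a7* reached 1 RPKM only in *Hmga2*-/- Ctrl cells (1.065 RPKM), the library it fell from.

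Among 8 genes of brakes and reverse steps, 5 could be tested. In *Hmga2*+/+ MEF 0 rose and 2 fell, and in *Hmga2*-/- MEF 1 rose and 2 fell. *Txnip*, whose product lowers glucose uptake, fell from 19.2 to 9.56 and from 16.3 to 7.96 RPKM, and its relative *Arrdc4* fell from 1.52 to 1.01 and from 1.57 to 0.953 RPKM. *Tigar*, a fructose 2,6-bisphosphatase, rose in *Hmga2*-/- MEF (0.60) and had 0.45 in *Hmga2*+/+ MEF. *Pck2* had 9.17 and 11.7 RPKM in *Hmga2*+/+ and 7.88 and 10.6 RPKM in *Hmga2*-/- MEF, under 1.5-fold (0.35 and 0.43), as was *G6pc3* (0.17 and 0.29). *Fbp1*, the liver fructose 1,6-bisphosphatase, and *Pck1* had 0 reads. Of 7 other sugar transporter genes, 5 were too low to test and *Slc2a8* fell (−1.10 and −0.90). *Slc2a6* had −0.13 and 0.38. It reached 1 RPKM only in *Hmga2*-/- TGFB1 cells (1.08, against 0.693 RPKM in *Hmga2*+/+ TGFB1 cells), so its higher level there is no separate result. The 7 genes of the pentose phosphate branch all stayed under 1.5-fold, with log2 changes of −0.15 to 0.27 and −0.10 to 0.44. In the side branches *Gfpt2*, of the hexosamine pathway, rose from 1.72 to 2.80 and from 1.05 to 3.29 RPKM, and *Ugp2*, which makes UDP-glucose, fell (−0.87 and −0.86), as did *Sord*, sorbitol dehydrogenase (−1.22 and −1.53). *Gfpt2* was lower in *Hmga2*-/- than in *Hmga2*+/+ Ctrl cells (−0.72), and its response was larger there by 0.95 (0.63 to 1.27). *Pgm2* and *Akr1b3* rose in *Hmga2*-/- MEF (0.59 and 0.65) and had 0.48 each in *Hmga2*+/+ MEF.

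**Figure D5:**
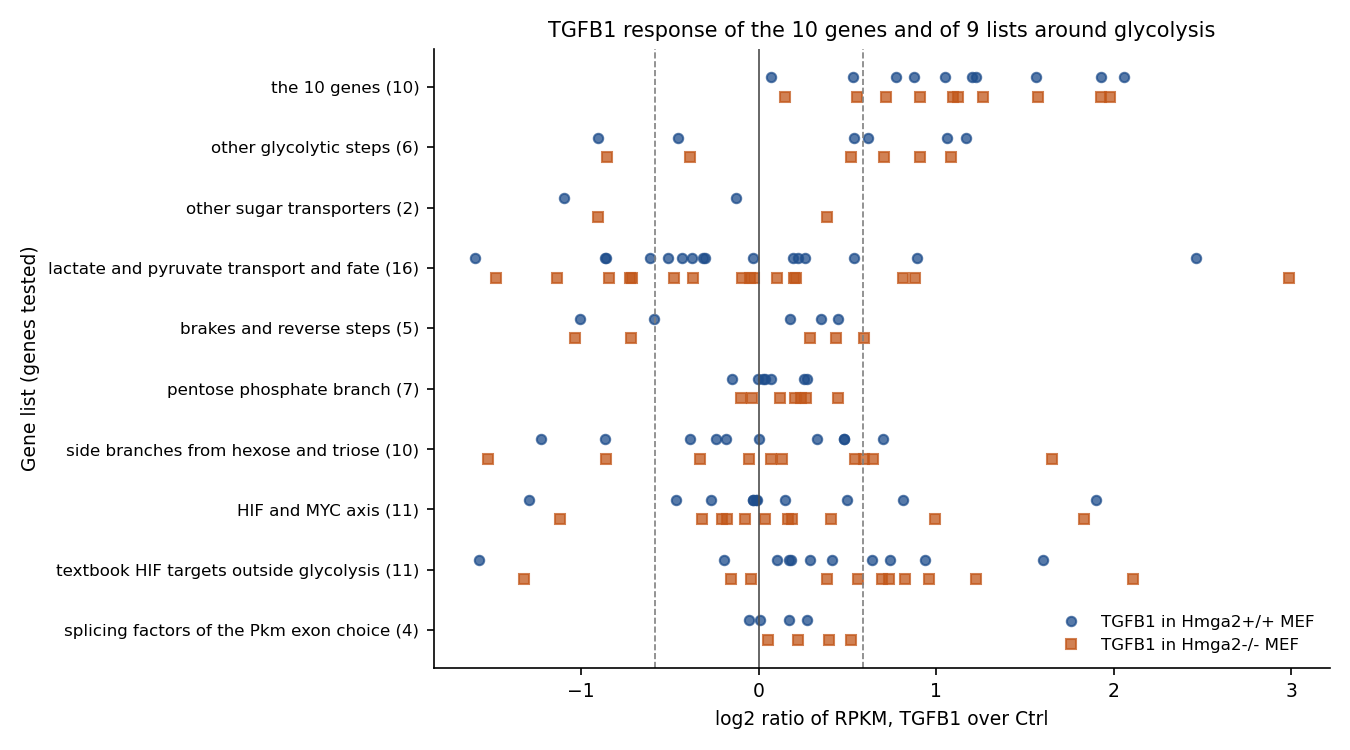
Log2 ratio of RPKM, TGFB1 over Ctrl, of the 10 genes and of the tested genes of 9 lists, circles for *Hmga2*+/+ and squares for *Hmga2*-/- MEF; the number of genes tested stands after each list, and dashed lines mark 1.5-fold. The 10 genes lie on the right of 0, whereas most of the lists around them lie on both sides and the pentose phosphate branch lies between the dashed lines.

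Transcription factor genes known to act on glycolysis were examined next. *Myc* rose from 5.17 to 19.3 and from 7.08 to 25.2 RPKM. *Hif1a*, at 67.8, 95.5, 72.7 and 96.3 RPKM, stayed under 1.5-fold (0.49 and 0.41), *Epas1*, encoding HIF2A, fell from 1.26 to 0.515 and from 0.810 to 0.373 RPKM and was lower in *Hmga2*-/- Ctrl cells (−0.64), and *Egln1*, a prolyl hydroxylase that marks HIF for degradation and is itself a HIF target, rose (0.81 and 0.99). Of 13 textbook HIF targets outside glycolysis 11 could be tested. In *Hmga2*+/+ MEF 4 rose and 1 fell, beside 12.1% and 17.7% of all genes tested. In *Hmga2*-/- MEF 6 rose and 1 fell, beside 13.8% and 15.9%. *Bnip3*, *Bnip3l*, *Ndrg1* and *Kdm3a* stayed under 1.5-fold in both genotypes. *Vegfa*, an angiogenic factor gene, went from 13.2 to 39.9 and from 10.3 to 44.5 RPKM, with a response 0.51 larger in *Hmga2*-/- MEF (0.41 to 0.60). *P4ha1*, a collagen prolyl hydroxylase subunit gene, rose (0.64 and 0.96), as did *Higd1a* (0.74 and 0.82). *Ddit4* and *P4ha2* rose in *Hmga2*-/- MEF (0.73 and 0.69) and had 0.17 and 0.11 in *Hmga2*+/+ MEF, with responses that differed by 0.57 (0.30 to 0.83) and 0.59 (0.42 to 0.76). *Adm*, encoding adrenomedullin, fell (−1.58 and −1.32). *Adm* was more than 1.5-fold higher in *Hmga2*-/- MEF in Ctrl (0.76) and in TGFB1 cells (1.01). *Ankrd37*, counted among the genes that rose (0.94 and 1.23), had few reads. It had 0.398 and 0.761 RPKM in *Hmga2*+/+ and 0.612 and 1.43 RPKM in *Hmga2*-/- MEF, from 20, 39, 31 and 73 reads. It reached 1 RPKM only in *Hmga2*-/- TGFB1 cells, so its rises and its higher level there are no separate result. The 4 genes of splicing factors known to act on the choice of *Pkm* exons, among them *Ptbp1* at 41.8, 50.6, 38.7 and 55.5 RPKM, stayed under 1.5-fold.

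*Hk2* had the widest range of the 10 genes over the 4 libraries, 2.20 on the log2 scale. Among 4903 genes that reached 10 RPKM in any library, those whose log2 RPKM, centred on their own mean, lay closest to *Hk2* over the 4 libraries were *Tm4sf1*, *Rasal2*, *Rnf149*, *Fmod* and *Ncam1*, at a root mean square distance of 0.05 to 0.10. *Tm4sf1*, the closest, had 22.2, 98.8, 27.0 and 109.4 RPKM. Likeness over 4 libraries rests mainly on the response to TGFB1.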

How the data were processed

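Strand-specific RNA-seq of total RNA (SMARTer stranded kit, single-end reads of 75 bases) was measured in 4 libraries, 1 per condition. The authors used trimmomatic for trimming and HISAT2 2.1.0 for mapping to mm10, and they deposited RPKM from HOMER for the UCSC known genes with 3 decimals. Exons are the counted feature per the file headers, and genes in the study's methods. The study's methods speak of duplicates of 1 experiment, and whether these were pooled is not given in the sources used here.

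A transcript took the name of the GENCODE vM21 gene of its strand that covered 50% or more of its span (57708 of 63759, 90.5%), and the transcript with the longest gene body was kept for each gene. *Ctgf* was found as *Ccn2* through RefSeq synonyms. RPKM of 0 was set to 0.001, a gene was tested if it had at least 1 RPKM in at least 1 library, and a change of at least 1.5-fold was called a rise or a fall. These thresholds take the place of a test, since RPKM are not counts and no condition has a second library. A gene near 1 RPKM may be tested only through the libraries where it is high. Its calls toward those libraries are then no separate result. Such genes include *Slc2a3*, *Slc2a6*, *Slc2a8*, *Slc16a7*, *Aldoc*, *Mpc1*, *Epas1*, *Ankrd37*, *Tubb3* and *Lum*.

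Mapped reads per library (56140000 to 57300000) were recovered from the steps in which low RPKM occur at a given length, and 100% of 1486 to 1505 low values lay within 0.1 of a whole read. Reads recovered so gave the exact conditional binomial (Clopper-Pearson) 95% intervals of ratios, and the intervals of differences between responses, of shares and of neighbours in an order used the sum of reciprocal reads. They cover counting error only, and reads without molecular identifiers are not independent molecules. Recovered depth, calls past 1.5-fold and the intervals of ratios and of response differences were checked on simulated libraries.

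Promoters came from RefSeq (GRCm38.p6) and near-identical stretches from blastn 2.17.0. The remaining steps ran in Python 3.11.15 with pandas 2.3.3, scipy 1.17.1, numpy 2.4.6 and matplotlib 3.10.9.

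The 10 genes, the lists and the motifs were chosen with earlier results of these data known. Named in the text were the 10 genes, their isozymes, other listed genes past 1.5-fold in at least 1 comparison, the 5 genes most like *Hk2*, *Hmga2* and *Ccn2* as checks, and cell type markers. A few genes that this rule takes are not reported here. *Tpi1*, *Eno3*, *Gapdh*, *Hif1a*, *Ptbp1*, *Fbp1*, *Pck1*, *Pck2*, *G6pc3*, *Pitrm1*, *Bnip3*, *Bnip3l*, *Ndrg1* and *Kdm3a* were named for context after their values were seen. Alternatives changed the pseudocount, the scaling, the transcript per gene, the filter and the fold threshold. The length of each transcript was used as deposited. ChIP-seq and human data were not analysed here.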

Additional observations from a re-analysis of the deposited data

How the results depend on the processing

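Under the alternatives the 10 genes kept their sign in 120 of 120 changes and their side of the 1.5-fold limit in 118. The exceptions were *Pfkp* in *Hmga2*+/+ and in *Hmga2*-/- MEF, which passed the limit when libraries were rescaled by the median ratio (log2 change 0.62 in *Hmga2*+/+). With a limit of 2-fold, 6 of the 10 genes rose in each genotype. The median response of the 10 genes in *Hmga2*+/+ MEF was 1.08 with a pseudocount of 1 RPKM and 1.22 with rescaled libraries, and in *Hmga2*-/- MEF it was 1.16 with rescaled libraries. Rescaling shifted all log2 changes by at most 0.09. The difference between genotypes in the response of *Pfkp*, whose interval included 0, was −0.01 with rescaled libraries in place of 0.02, and that of *Pfkfb3* was −0.20 with a pseudocount of 1 RPKM in place of −0.35. No paired analysis was possible over replicates because each condition has a single library. An additive fit with genotype as the block, which would take the genotypes as replicates of the treatment and leave a single residual degree of freedom, was not run. No replicate could be left out.

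Counts over all genes past 1.5-fold depended on the filter and on the pseudocount, beside 1372 that rose and 2012 that fell in *Hmga2*+/+ MEF, 1570 and 1812 in *Hmga2*-/- MEF, 343 higher and 314 lower in *Hmga2*-/- Ctrl and 444 higher and 317 lower in *Hmga2*-/- TGFB1 cells. In the same order they were 3019 and 4989, 3321 and 4747, 2181 and 2277, and 2422 and 2134 without a filter on low RPKM. They were 695 and 519, 769 and 479, 81 and 45, and 109 and 53 with a limit of 10 RPKM. They were 1050 and 1290, 1223 and 1172, 166 and 152, and 215 and 115 with a pseudocount of 1 RPKM. With a limit of 2-fold they were 595 and 880, 685 and 842, 125 and 141, and 163 and 119. The most abundant transcript in place of the longest moved shares of a step by at most 15.0 percentage points, and a pseudocount of 1 RPKM by at most 21.1. Depth limits the isozymes under 0.1 RPKM.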
